A study of Homo sapiens with 10 samples.

Results

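The genes described here are 10 genes grouped as associated with cancer stem cells. The set was taken from the 23170 gene rows measured by RNA-seq in 4 lines of PC3, a human prostate cancer cell line. The 10 genes were CD24, PROM1, PROM2, ALDH1A1, SOX2, SOX9, MYC, LIN28B, HMGA2 and BMI1. Each was found by its symbol in 1 row of each of the 4 gene tables. PC3-Epi (2 samples) was a luciferase-carrying subpopulation picked for its light signal and epithelial shape. PC3-EMT14 (3 samples) was a mesenchymal population recovered after PC3-Epi had been cultured with M2 macrophages. Transduction of those mesenchymal cells with a lentivirus expressing the zinc-finger transcription factor OVOL1 gave the line PC3-EMT14-OVOL1 (3 samples). A lentivirus with its relative OVOL2 gave PC3-EMT14-OVOL2 (2 samples). The untransduced PC3-EMT14 line was the control for both, so a contribution of the virus or of drug selection cannot be told apart from that of the OVOL gene.

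Cancer stem cells are tumour cells that can self-renew and seed new growth, and the epithelial to mesenchymal transition (EMT) has been linked to gain of such traits. The genes fall into 4 roles. CD24, PROM1 (CD133) and its relative PROM2 encode cell surface proteins. ALDH1A1 encodes an aldehyde dehydrogenase that makes retinoic acid and underlies a common stem cell enzyme assay. SOX2, SOX9 and MYC are transcription factors of pluripotent, progenitor and proliferating cells. LIN28B is an RNA-binding protein that blocks maturation of the let-7 microRNAs, HMGA2 is a chromatin protein and classic let-7 target, and BMI1 is a subunit of Polycomb repressive complex 1. The comparisons with PC3-EMT14 ask how these genes differ when OVOL1 or OVOL2 is expressed in mesenchymal cells and how they differ in the epithelial line from which those cells came.

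Each table gave 1 pooled value per line in FPKM, fragment counts scaled to transcript length and to library size. By the study's settings, library size was set by upper-quartile normalization and not by all mapped fragments. The values carried no spread between samples, so no difference below was tested, none has an error, and the number of reads behind each is unknown. A gene was counted as past 2-fold when the ratio of its FPKM values was at least 2 and the higher line reached 1 FPKM. The share of all genes past 2-fold is given as the background. The 3 tables that hold PC3-EMT14 shared that line as control. They were normalized separately, and the value of any expressed gene of the 10 in the same line differed between tables by at most 1.03-fold. In bulk RNA, fewer cells of a type and less RNA per cell cannot be told apart.

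The transgenes were read in their lines. OVOL1 was 0.0238 FPKM in PC3-EMT14 and 11.3 FPKM in the OVOL1 line, and OVOL2 was 0.370 FPKM in PC3-EMT14 and 831 FPKM in the OVOL2 line. The summed FPKM of 7 epithelial markers, a list that includes OVOL1 and OVOL2 themselves, was 230 in PC3-EMT14 and 1020 in PC3-Epi. The summed FPKM of 6 mesenchymal markers was 337 in PC3-EMT14 and 89.2 in PC3-Epi. Of 11 macrophage markers, 10 stayed under 1 FPKM in every line, and without CD68 their sum was 0.378 FPKM in PC3-EMT14 as against 0.350 FPKM in PC3-Epi. CD68 itself was 54.1 FPKM in PC3-EMT14 as against 13.3 FPKM in PC3-Epi. Its part in the results was not tested.

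The 10 genes fell into a group of 6 that were expressed and a group of 4 that were at or near 0 in all lines. CD24, PROM2, SOX9, MYC, HMGA2 and BMI1 were never below 1.504 FPKM. PROM1, ALDH1A1, SOX2 and LIN28B never exceeded 0.0638 FPKM. In the table of the OVOL1 line, the order in PC3-EMT14 was CD24 at 78.5 FPKM, SOX9 at 68.1, MYC at 66.1, BMI1 at 50.4, HMGA2 at 41.6 and PROM2 at 1.52. In PC3-Epi the order was MYC at 96.7 FPKM, CD24 at 68.2, HMGA2 at 51.7, BMI1 at 47.9, SOX9 at 44.01 and PROM2 at 29.7. MYC was thus the third in PC3-EMT14 and the first in PC3-Epi, and SOX9 the second and the fifth. Which neighbours differ beyond their spread cannot be said without values per sample.

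**Figure D1:**
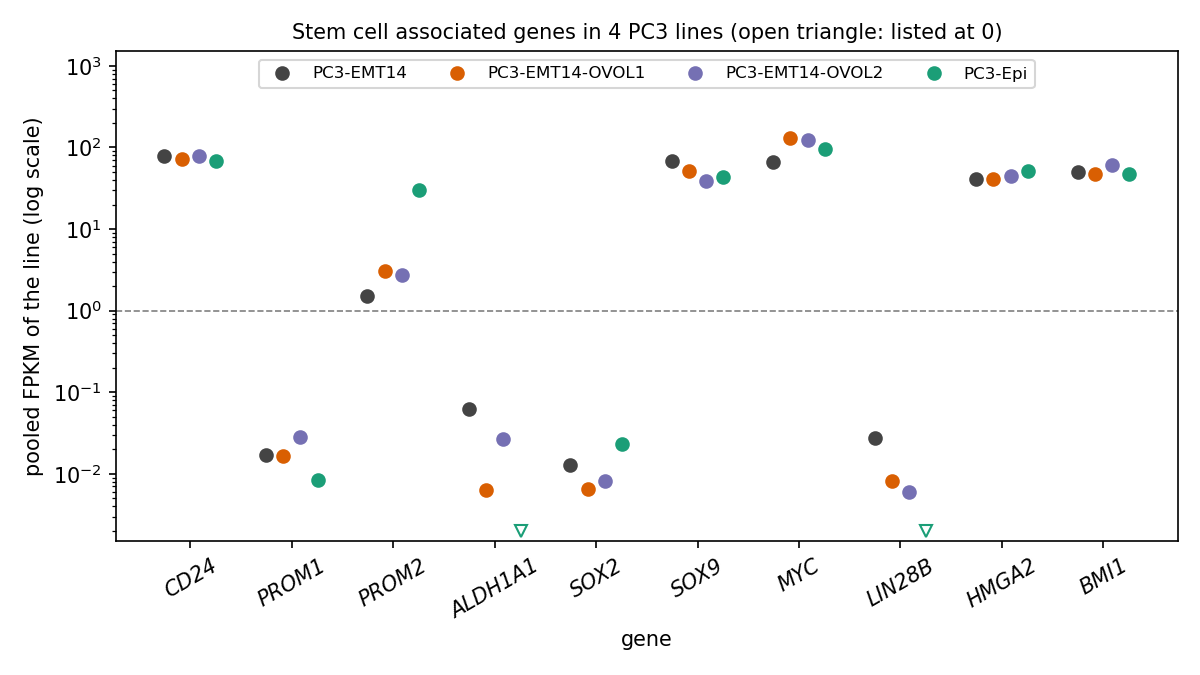
Pooled FPKM (y axis, log scale) of the 10 genes (x axis) in PC3-EMT14, the OVOL1 line, the OVOL2 line and PC3-Epi. Each point is 1 pooled value, open triangles mark a value listed at 0, the dashed line is 1 FPKM, and PC3-EMT14 is shown from the OVOL1 table. The 6 expressed genes lie at or above 1.504 FPKM and the other 4 at or below 0.0638 FPKM, and PROM2 shows the widest spread among the 6.

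Counted over the 10 genes, few passed 2-fold. Only the 6 expressed genes could pass, because the other 4 stayed under 1 FPKM in every line. The shares below are likewise over genes with at least 1 FPKM in the higher line. In the OVOL1 line PROM2 was the 1 gene higher, where 2.43% of 12197 genes were higher, and 0 genes were lower, where 1.54% were lower. In the OVOL2 line 0 of the 10 were past 2-fold in either direction, where 4.42% of 12307 genes were higher and 2.93% lower. In PC3-Epi PROM2 was the 1 gene higher, where 7.37% of 12441 genes were higher, and 0 were lower, where 8.34% were lower. Between the OVOL lines 0 of the 10 were past 2-fold, where 1.90% of 12188 genes were higher in the OVOL2 line and 1.17% were lower. With 6 genes that could pass, a count of 1 is the smallest above 0, and nothing is read from it. The median log2 difference of the 6 expressed genes was -0.04 in the OVOL1 line, 0.20 in the OVOL2 line and 0.09 in PC3-Epi, and over all genes it was -0.00, -0.04 and -0.01.

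**Figure D2:**
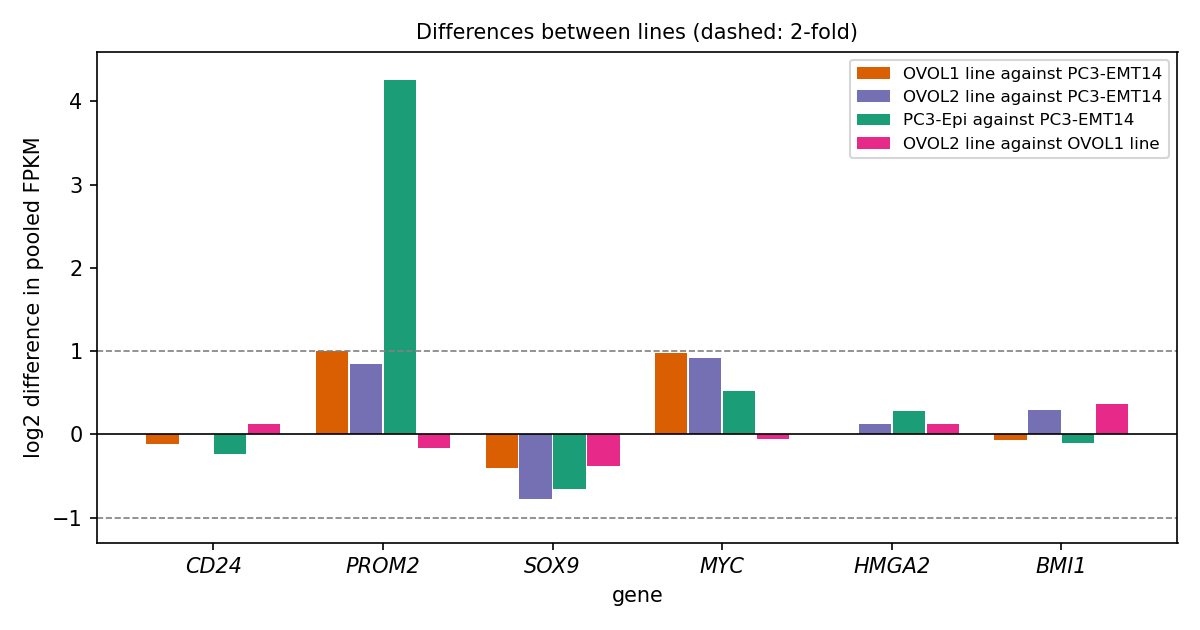
Log2 difference in pooled FPKM (y axis) of the 6 expressed genes (x axis) in 4 comparisons. Bars above 0 are higher in the line named first, dashed lines mark 2-fold, and no error is shown because the values are pooled. The PROM2 bar of PC3-Epi reaches 4.26, MYC is above 0 and SOX9 below 0 in all 3 comparisons with PC3-EMT14.

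PROM2 differed most among the 6 expressed genes. It encodes prominin-2, a cholesterol-binding protein of membrane protrusions. It was 1.55 FPKM in PC3-EMT14 as against 29.7 FPKM in PC3-Epi, a ratio of 19.1 (log2 difference 4.26). It was 1.52 FPKM in PC3-EMT14 and 3.04 FPKM in the OVOL1 line, a ratio of 2.002 (log2 difference 1.00). It was 1.504 FPKM in PC3-EMT14 and 2.70 FPKM in the OVOL2 line, a ratio of 1.79 (log2 difference 0.84). PROM2 was therefore higher in all 3 lines than in PC3-EMT14, and both OVOL lines stayed far below PC3-Epi. In the direct table it was 3.01 FPKM in the OVOL1 line and 2.70 FPKM in the OVOL2 line, a ratio of 0.896. The difference between PC3-Epi and PC3-EMT14 ranked 154 among the 12441 genes with at least 1 FPKM in the higher line, counted from the largest ratio. The study listed PROM2 among genes whose expression rose with that of OVOL1 and OVOL2 across cancer cell lines.

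The PROM2 row covered chr2:95940201-95957055 (hg19, plus strand), with no other annotated gene in that interval, and held 3 isoform rows. The files give no transcript names for these rows. A single row carried 96.1% of the summed PROM2 FPKM in PC3-EMT14, 96.0% in the OVOL1 line, 96.2% in the OVOL2 line and 96.3% in PC3-Epi. The isoform composition was thus nearly the same at low and at high PROM2 levels. By root mean square difference of the 3 log2 differences against PC3-EMT14, the 3 genes most like PROM2 among 12453 were FAM198A (0.22), KLK8 (0.32) and RASEF (0.36). Their levels were much lower than that of PROM2, at 1.76 FPKM, 2.42 FPKM and 2.75 FPKM in PC3-Epi, and under 0.5 FPKM in the other 3 lines.

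PROM1 is the paralog of PROM2 and the better known stem cell marker, and it was not detected at a usable level. It was 0.0169 FPKM in PC3-EMT14 and 0.0166 FPKM in the OVOL1 line. In the table of PC3-Epi it was 0.0173 FPKM in PC3-EMT14 as against 0.00834 FPKM in PC3-Epi. The OVOL2 line held 0.0285 FPKM. None of its 7 isoform rows exceeded 0.0285 FPKM in any line. The row covered chr4:15969849-16085623 (hg19, minus strand).

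The promoter windows of the 2 prominin genes are shown because PROM2 differed between lines and PROM1 was near 0. The sequences are from RefSeq (GRCh38.p14) and are windows of 300 bases around the annotated start. The PROM2 window is chr2:95274199-95274498 on the plus strand. The PROM1 window is 1 of 4 windows listed for that gene, at chr4:16083974-16084273 on the minus strand, and is the first in the list that holds a match. Capitals mark CACCTG, an E-box that ZEB and Snail family repressors can bind, on either strand.
PROM2: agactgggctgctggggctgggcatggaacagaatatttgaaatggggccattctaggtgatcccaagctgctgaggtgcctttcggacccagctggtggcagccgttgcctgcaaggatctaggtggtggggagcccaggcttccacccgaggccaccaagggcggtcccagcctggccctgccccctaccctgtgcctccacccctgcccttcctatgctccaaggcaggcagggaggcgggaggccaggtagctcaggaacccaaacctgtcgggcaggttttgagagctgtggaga
PROM1: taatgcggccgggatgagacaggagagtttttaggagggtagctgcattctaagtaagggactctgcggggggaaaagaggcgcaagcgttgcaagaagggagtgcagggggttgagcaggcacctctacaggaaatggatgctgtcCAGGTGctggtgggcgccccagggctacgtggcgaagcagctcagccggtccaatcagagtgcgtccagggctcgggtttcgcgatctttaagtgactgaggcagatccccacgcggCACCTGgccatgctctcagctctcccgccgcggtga

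CACCTG was absent from the PROM2 window and present 2 times in the PROM1 window shown. That PROM1 window was picked for holding a match, so nothing is read from the contrast between the 2 windows. Over the 10 genes, 7 had windows, and CACCTG was found in 3 of 4 PROM1 windows, 1 of 3 CD24 windows and the 1 ALDH1A1 window, and in none of the windows of PROM2, SOX2, LIN28B and BMI1. It occurred in 20.6% of all 35116 promoter windows. CCGTTA is 1 form of the core of the OVOL2 consensus that the study used. It was found in none of the windows of the 7 genes and in 3.07% of all windows. The other letters that the consensus allows before GTTA were not searched, so absence of the OVOL2 core cannot be read from this. The 2 motifs do not overlap each other. A match is a description of letters and not a binding site, and SOX9, MYC and HMGA2 were not examined.

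CD24, a small glycosylated surface protein, differed little between the lines. It was 78.5 FPKM in PC3-EMT14 and 72.3 FPKM in the OVOL1 line (log2 difference -0.12). It was 77.7 FPKM in PC3-EMT14 and 77.6 FPKM in the OVOL2 line. It was 80.1 FPKM in PC3-EMT14 as against 68.2 FPKM in PC3-Epi (log2 difference -0.23). The row placed CD24 on chromosome Y at 21094585 to 21239302 (hg19). The GENCODE annotation of that build has a processed pseudogene, CD24P4, in this interval and no gene named CD24, whereas RefSeq (GRCh38.p14) places CD24 on chromosome 6. Of 82 other named chromosome Y rows whose names have no copy on X, 0 reached 1 FPKM in any line. The CD24 values are therefore uncertain, since reads of near-identical copies may have been assigned to this row.

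Among other stem cell surface markers, EPCAM and CXCR4 were past 2-fold in all 3 comparisons with PC3-EMT14. This list held 20 genes, of which 10 to 12 reached 1 FPKM in the comparisons with PC3-EMT14. In the OVOL1 line 1 was past 2-fold higher and 1 lower, in the OVOL2 line 1 higher and 1 lower, and in PC3-Epi 3 higher and 2 lower. Over all genes, 2.43% were higher and 1.54% lower in the OVOL1 line, 4.42% and 2.93% in the OVOL2 line, and 7.37% and 8.34% in PC3-Epi. The median log2 difference of the list was -0.07, 0.02 and -0.25 in these 3 comparisons, a size like that of CD24. EPCAM, an epithelial adhesion protein, was 23.0 FPKM in PC3-EMT14 and 87.6 FPKM in the OVOL1 line. It was 151 FPKM in the OVOL2 line and 225 FPKM in PC3-Epi. CXCR4, a chemokine receptor, was 1.27 FPKM in PC3-EMT14, 0.226 FPKM in the OVOL1 line, 0.232 FPKM in the OVOL2 line and 0.0495 FPKM in PC3-Epi. In PC3-Epi, ENG was 2.53 FPKM against 0.527 FPKM, PSCA was 1.86 FPKM against 0.468 FPKM and NT5E was 7.28 FPKM against 29.5 FPKM in PC3-EMT14. CD44, the most used partner marker of CD24 and named here after its values were seen, was 42.6 FPKM in PC3-EMT14 and 45.9, 50.6 and 51.6 FPKM in the OVOL1 line, the OVOL2 line and PC3-Epi. These CD44 values are gene totals. The study reported that both OVOL1 and OVOL2 switched CD44 isoforms, which totals do not show and which was not examined here.

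ALDH1A1 was at or near 0 in all 4 lines. It was 0.0625 FPKM in PC3-EMT14 and 0.00629 FPKM in the OVOL1 line. It was 0.0618 FPKM in PC3-EMT14 and 0.0270 FPKM in the OVOL2 line, and it was listed at 0 in PC3-Epi. PC3-EMT14 held the highest value, but all of them lay below the 1 FPKM needed for a comparison. The row covered chr9:75515587-75567969 (hg19, minus strand).

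Another enzyme of the same class, ALDH1A3, was abundant. It also makes retinoic acid. It was 438 FPKM in PC3-EMT14 and 785 FPKM in the OVOL1 line, a ratio of 1.79. It was 433 FPKM in PC3-EMT14 and 991 FPKM in the OVOL2 line, a ratio of 2.29. It was 447 FPKM in PC3-EMT14 as against 719 FPKM in PC3-Epi, a ratio of 1.61. In PC3-EMT14 it ranked 124 among all 23170 gene rows, and it was the highest of the 18 other aldehyde dehydrogenases listed in each of the 4 lines. Of these 18 genes, 12 reached 1 FPKM in each comparison. None was past 2-fold in the OVOL1 line, where 2.43% of all genes were higher and 1.54% lower, and the median log2 difference of the 12 was -0.14 against -0.00 over all genes. In the OVOL2 line 2 were higher (ALDH1A3 and ALDH3B1, the latter 20.6 FPKM against 8.89 FPKM in PC3-EMT14) and 1 was lower, where 4.42% and 2.93% of all genes were. The lower one was ALDH2, the mitochondrial enzyme of acetaldehyde removal, with 12.0 FPKM in PC3-EMT14 as against 3.52 FPKM in the OVOL2 line. In PC3-Epi 2 were lower, where 8.34% of all genes were, namely ALDH2 at 12.4 FPKM in PC3-EMT14 as against 0.170 FPKM in PC3-Epi, and ALDH3A1 at 6.20 FPKM and 0.902 FPKM. The median log2 difference of the 12 was -0.27 in the OVOL2 line and -0.19 in PC3-Epi, against -0.04 and -0.01 over all genes.

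**Figure D3:**
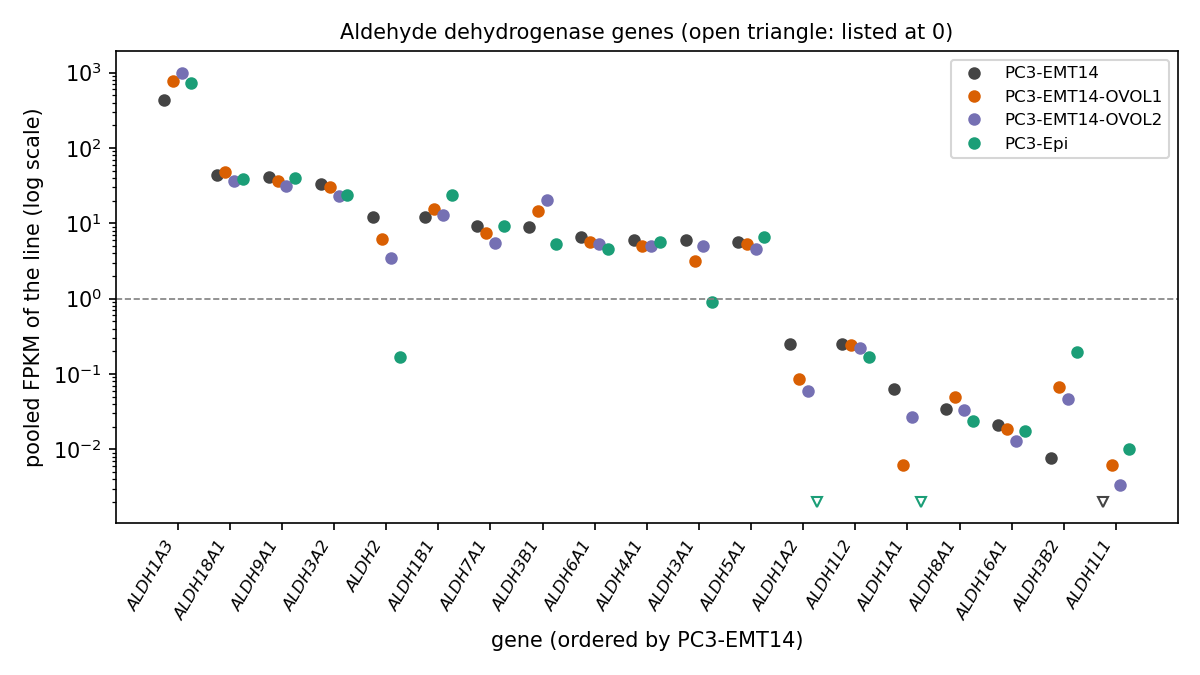
Pooled FPKM (y axis, log scale) of ALDH1A1 and 18 other aldehyde dehydrogenase genes (x axis, ordered by PC3-EMT14) in 4 lines. Each point is 1 pooled value, open triangles mark a value listed at 0, and the dashed line is 1 FPKM. ALDH1A3 lies above all the others in each line, ALDH1A1 lies at or below 0.0638 FPKM, and ALDH2 runs between 12.2 FPKM (PC3-EMT14) and 0.170 FPKM (PC3-Epi).

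MYC, which drives growth and ribosome production, was higher in all 3 lines than in PC3-EMT14. It was 66.1 FPKM in PC3-EMT14 and 131 FPKM in the OVOL1 line, a ratio of 1.98 (log2 difference 0.98), just short of 2-fold where PROM2 was just past it. It was 65.4 FPKM in PC3-EMT14 and 124 FPKM in the OVOL2 line, a ratio of 1.90 (log2 difference 0.92). It was 67.5 FPKM in PC3-EMT14 as against 96.7 FPKM in PC3-Epi, a ratio of 1.43 (log2 difference 0.52). MYC was thus further above PC3-EMT14 in the OVOL lines than in PC3-Epi, the reverse of the order seen for PROM2. Counted from the largest ratio, MYC ranked 298 of 12197 genes in the OVOL1 line, 599 of 12307 in the OVOL2 line and 2162 of 12441 in PC3-Epi. In the direct table MYC was 129 FPKM in the OVOL1 line and 124 FPKM in the OVOL2 line, a log2 difference of -0.06. OVOL2 has been described as a repressor of MYC in keratinocytes. MYC lies on chromosome 8, its row had 1 isoform, and the antisense gene CASC11 overlaps it.

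The MYC target genes were 22 genes, mostly of ribosome production and nucleotide supply, and 21 reached 1 FPKM. In the OVOL1 line 19 of the 21 had a higher value than in PC3-EMT14, against 49.7% of all genes, and the median log2 difference was 0.25. In the OVOL2 line 15 of 21 were higher, against 44% of all genes, with a median of 0.13. In PC3-Epi 19 of 21 were higher, against 49.1% of all genes, with a median of 0.40. These differences were small. NOP56 was the 1 target past 2-fold in each comparison with PC3-EMT14, with 120 FPKM in PC3-EMT14 as against 319 FPKM in the OVOL1 line, and at 122 FPKM in PC3-EMT14 as against 1139 FPKM in PC3-Epi. Small nucleolar RNA rows share the NOP56 locus, and the 2 isoform rows of NOP56 summed to 120 and 135 FPKM in the OVOL1 table (ratio 1.13) and to 122 and 179 FPKM in the PC3-Epi table (ratio 1.46), so its gene value is uncertain. ODC1, the rate-limiting enzyme of polyamine synthesis and the target furthest below 0, was named after its values were seen. It was 517 FPKM in PC3-EMT14 and 339 FPKM in the OVOL1 line, with log2 differences of -0.61, -0.82 and -0.71 in the OVOL1 line, the OVOL2 line and PC3-Epi.

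**Figure D4:**
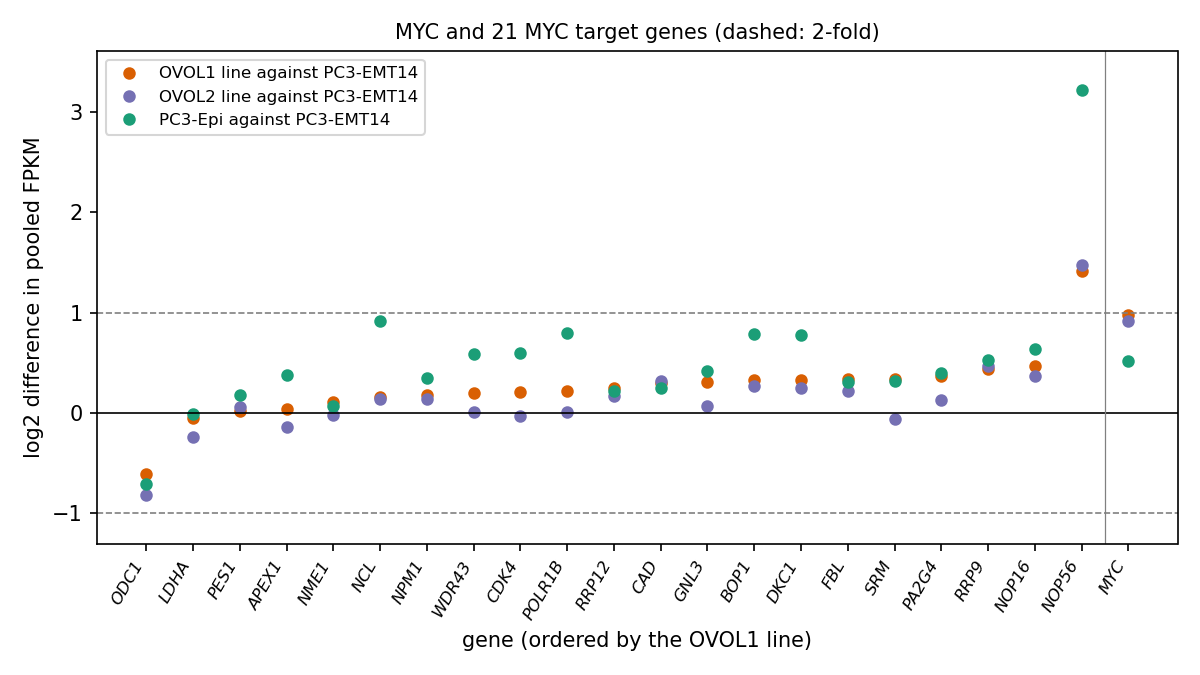
Log2 difference in pooled FPKM against PC3-EMT14 (y axis) for 21 MYC target genes (x axis, ordered by the OVOL1 line) and for MYC at the right. Points are the OVOL1 line, the OVOL2 line and PC3-Epi, and dashed lines mark 2-fold. Most targets lie between 0 and 1, ODC1 lies below 0 in all 3 comparisons, and the NOP56 points above 1 come from a gene row that its isoform rows do not match.

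Among 15 MYC family members and partners, 14 reached 1 FPKM, and their median log2 difference was 0.07 in the OVOL1 line, 0.08 in the OVOL2 line and -0.04 in PC3-Epi. In the OVOL1 line 1 of the 14 was past 2-fold higher, where 2.43% of all genes were. This was MYCL1, with 0.628 FPKM in PC3-EMT14 as against 1.41 FPKM in the OVOL1 line. Of the 14, 2 were higher in the OVOL2 line, where 4.42% of all genes were. These were MYCL1 and the kinase gene PIM1, the latter with 6.39 FPKM in PC3-EMT14 as against 14.5 FPKM. In PC3-Epi 1 was higher and 1 lower, where 7.37% and 8.34% of all genes were. MYCL1 was 1.66 FPKM against 0.642 FPKM, and MXD4, which encodes a repressor that competes with MYC for its partner MAX, was 6.18 FPKM against 18.3 FPKM. MAX itself was 33.2 FPKM in PC3-EMT14 and 29.9 FPKM in the OVOL1 line.

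SOX9, a progenitor factor of many epithelia, was lower in all 3 lines than in PC3-EMT14. It was 68.1 FPKM in PC3-EMT14 and 51.7 FPKM in the OVOL1 line (log2 difference -0.40). It was 67.4 FPKM in PC3-EMT14 and 39.3 FPKM in the OVOL2 line (log2 difference -0.78). It was 69.5 FPKM in PC3-EMT14 as against 44.01 FPKM in PC3-Epi (log2 difference -0.66). None of these differences reached 2-fold. Counted from the smallest ratio, SOX9 ranked 998 of 12197 genes in the OVOL1 line, 543 of 12307 in the OVOL2 line and 1781 of 12441 in PC3-Epi. In the direct table it was 51.2 FPKM in the OVOL1 line and 39.3 FPKM in the OVOL2 line (log2 difference -0.38). The row covered chr17:70117161-70122560 (hg19, plus strand), where the antisense gene SOX9-AS1 overlaps it.

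SOX2 was at or near 0. It was 0.0128 FPKM in PC3-EMT14 and 0.00657 FPKM in the OVOL1 line, and 0.00808 FPKM in the OVOL2 line. PC3-Epi held 0.0232 FPKM. Its row, chr3:181328151-181459005 (hg19), was given the same locus as that of the non-coding gene SOX2OT, whose own value was 0.0138 FPKM in PC3-EMT14. Of 17 other SOX genes, 6 reached 1 FPKM, with a median log2 difference of -0.20 in the OVOL1 line, -0.02 in the OVOL2 line and -0.29 in PC3-Epi. In each line at most 1 of the 6 was past 2-fold higher and at most 1 was past 2-fold lower. Over all genes, 2.43% were higher and 1.54% lower in the OVOL1 line, 4.42% and 2.93% in the OVOL2 line, and 7.37% and 8.34% in PC3-Epi. With 6 genes, nothing is read from these counts. SOX4 was past 2-fold lower in the OVOL1 line, at 7.36 FPKM against 17.9 FPKM in PC3-EMT14. SOX15 was past 2-fold higher in the OVOL2 line, at 2.17 FPKM against 0.751 FPKM, and in PC3-Epi, at 2.21 FPKM against 0.776 FPKM. SOX7 was past 2-fold lower in PC3-Epi, at 5.37 FPKM against 13.96 FPKM.

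Of 17 other pluripotency factors, 5 reached 1 FPKM, and none was past 2-fold in either OVOL line. With 5 genes and shares of 1.54% to 4.42% per direction over all genes, nothing is read from this count. Their median log2 difference was -0.12 in the OVOL1 line, 0.33 in the OVOL2 line and 0.02 in PC3-Epi. In PC3-Epi 7.37% of all genes were higher and 8.34% lower. There DNMT3B was just past 2-fold higher (ratio 2.04), at 4.18 FPKM against 2.05 FPKM in PC3-EMT14. KLF2 was lower in PC3-Epi, at 0.703 FPKM against 1.74 FPKM. The core factors POU5F1 and NANOG, named after their values were seen, stayed under 1 FPKM in all 4 lines. POU5F1 was 0.120 FPKM in PC3-EMT14 as against 0.841 FPKM in PC3-Epi, and near-identical POU5F1 copies make this value uncertain.

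LIN28B was at or near 0. It was 0.0278 FPKM in PC3-EMT14 and 0.00825 FPKM in the OVOL1 line. It was 0.00598 FPKM in the OVOL2 line and was listed at 0 in PC3-Epi. Its paralog LIN28A, also under 1 FPKM, was 0.00742 FPKM in PC3-EMT14. The row of LIN28B covered chr6:105404923-105531206 (hg19, plus strand).

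HMGA2 was expressed in all 4 lines with small differences in total. It was 41.6 FPKM in PC3-EMT14 and 41.5 FPKM in the OVOL1 line. It was 41.2 FPKM in PC3-EMT14 and 44.7 FPKM in the OVOL2 line (log2 difference 0.12). It was 42.5 FPKM in PC3-EMT14 as against 51.7 FPKM in PC3-Epi (log2 difference 0.28). PC3-EMT14 and the OVOL1 line held nearly the same level, and the OVOL2 line and PC3-Epi held slightly more.

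The 2 HMGA2 isoform rows differed between the lines in unlike ways. The minor row was 5.84 FPKM in PC3-EMT14 and 9.65 FPKM in the OVOL1 line, and its share of HMGA2 was 14% and 23.2%. It was 5.78 FPKM in PC3-EMT14 and 13.1 FPKM in the OVOL2 line, a ratio of 2.27, with shares of 14% and 29.4%. It was 5.99 FPKM in PC3-EMT14 as against 9.72 FPKM in PC3-Epi, with shares of 14.1% and 18.8%. The major row was 35.8 FPKM in PC3-EMT14, 31.9 FPKM in the OVOL1 line, 31.6 FPKM in the OVOL2 line and 42.0 FPKM in PC3-Epi. A shift in isoform share at least as large as that of HMGA2 was seen in 12.8% of 4710 genes with 2 or more isoform rows in the OVOL1 line, in 8.20% of 4708 in the OVOL2 line and in 41.0% of 4605 in PC3-Epi. The row identifiers carry no transcript name, so the 2 isoforms cannot be assigned to known transcripts.

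The HMGA2 row covered chr12:66151801-66360071 (hg19), which is wider than the annotated gene (66218240 to 66360071, plus strand). It took in RPSAP52, a non-coding gene on the opposite strand that has a row of its own. RPSAP52 was 10.9 FPKM in PC3-EMT14 as against 1.59 FPKM in PC3-Epi, a ratio of 0.146 (log2 difference -2.77). It was 10.6 FPKM in PC3-EMT14 and 5.60 FPKM in the OVOL1 line (log2 difference -0.93), and 10.5 FPKM in PC3-EMT14 and 7.07 FPKM in the OVOL2 line (log2 difference -0.58). RPSAP52 was thus lower in all 3 lines while HMGA2 was not. Whether fragments were counted by strand is not given in the sources used here, so reads of the overlapping ends of the 2 genes cannot be told apart.

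**Figure D5:**
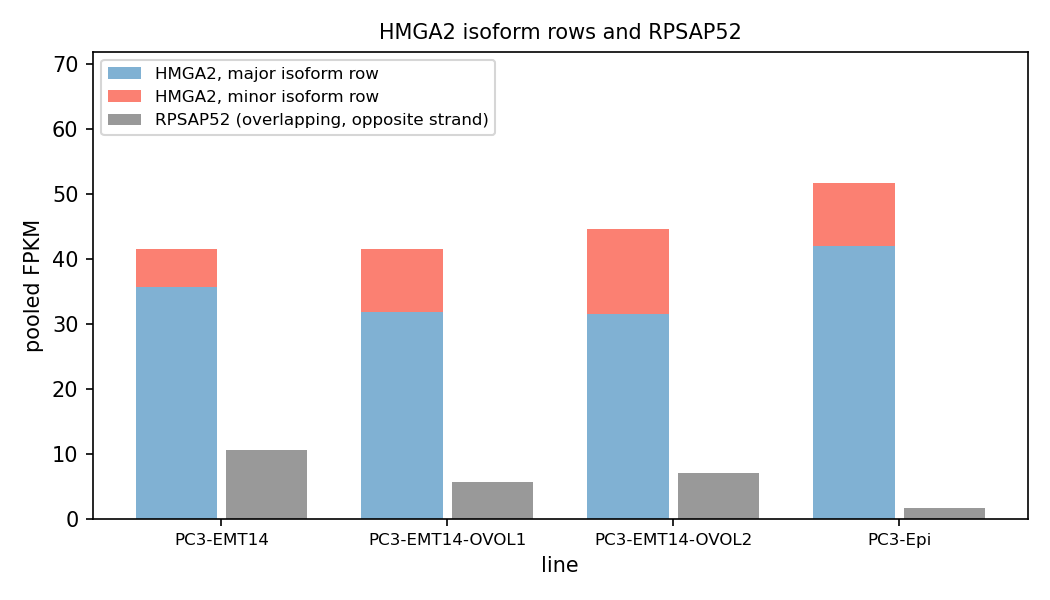
Pooled FPKM (y axis) of the 2 HMGA2 isoform rows, stacked, and of RPSAP52 beside them in 4 lines (x axis). Each bar segment is 1 pooled value and PC3-EMT14 is shown from the OVOL1 table. The minor isoform row is highest in the OVOL2 line at 13.1 FPKM, and RPSAP52 is lowest in PC3-Epi at 1.59 FPKM.

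The list of LIN28, let-7 processing and let-7 target genes held 21 genes, of which 17 or 18 reached 1 FPKM. None was past 2-fold in the OVOL1 line, where 2.43% of all genes were higher and 1.54% lower. In the OVOL2 line 1 was lower, where 2.93% of all genes were, and in PC3-Epi 1 was higher, where 7.37% were. The former was IGF2BP3, an RNA-binding protein, at 5.92 FPKM in the OVOL2 line against 13.9 FPKM in PC3-EMT14. The latter was E2F2, a cell cycle factor, at 2.25 FPKM in PC3-Epi against 0.524 FPKM. The median log2 difference of the list was 0.03 in the OVOL1 line, -0.04 in the OVOL2 line and 0.13 in PC3-Epi. HMGA1, the relative of HMGA2 and named after its values were seen, was far more abundant than HMGA2. It was 851 FPKM in PC3-EMT14 as against 789 FPKM in the OVOL1 line, in a row whose test failed. It was 842 FPKM in PC3-EMT14 and 647 FPKM in the OVOL2 line (log2 difference -0.38). It was 870 FPKM in PC3-EMT14 as against 734 FPKM in PC3-Epi (log2 difference -0.25).

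BMI1 differed little between the lines. It was 50.4 FPKM in PC3-EMT14 and 47.9 FPKM in the OVOL1 line (log2 difference -0.07). It was 49.9 FPKM in PC3-EMT14 and 60.9 FPKM in the OVOL2 line (log2 difference 0.29). It was 51.4 FPKM in PC3-EMT14 as against 47.9 FPKM in PC3-Epi (log2 difference -0.10). The OVOL2 line was the highest of the 4. The row covered chr10:22610006-22620414 (hg19, plus strand), where a read-through transcript joins BMI1 to its neighbour COMMD3. COMMD3 was 88.0 FPKM in PC3-EMT14 and 124 FPKM in the OVOL2 line, and 90.8 FPKM in PC3-EMT14 as against 61.4 FPKM in PC3-Epi. Reads of the read-through transcript cannot be told apart from those of BMI1, and their part in the BMI1 values was not tested.

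The other subunits of the Polycomb complexes were within 2-fold in both OVOL lines, and CBX2 and EED were past it in PC3-Epi. All 18 listed genes of complex 1 reached 1 FPKM, and none was past 2-fold in either OVOL line, where 1.54% to 4.42% of all genes were per direction, so that counts of 0 are near the background. In PC3-Epi, where 7.37% of all genes were higher, CBX2, a reader of methylated histone H3, was higher at 15.4 FPKM against 5.83 FPKM in PC3-EMT14. All 11 genes of complex 2 reached 1 FPKM, none was past 2-fold in either OVOL line, and in PC3-Epi EED was higher at 16.0 FPKM against 5.69 FPKM. The median log2 difference of complex 1 was -0.01 in the OVOL1 line, -0.13 in the OVOL2 line and 0.00 in PC3-Epi, and that of complex 2 was 0.02, -0.07 and 0.14. CDKN2A and CDKN2B, the cell cycle inhibitor genes that BMI1 is known to silence, were expressed and were not past 2-fold in any comparison. CDKN2B was 28.0 FPKM in PC3-EMT14 and 17.0 FPKM in the OVOL1 line, 17.1 FPKM in the OVOL2 line and 14.9 FPKM in PC3-Epi.

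None of the 6 expressed genes was past 2-fold between the OVOL2 and OVOL1 lines. The log2 differences, OVOL2 line minus OVOL1 line, ran from -0.38 for SOX9 to 0.36 for BMI1. The median absolute log2 difference was 0.14 over genes of at least 1 FPKM in both lines. Of 12188 genes, SOX9 ranked 793 from the smallest ratio and BMI1 ranked 1122 from the largest. BMI1 was 47.4 FPKM in the OVOL1 line and 60.8 FPKM in the OVOL2 line. CD24 was 71.5 FPKM and 77.5 FPKM, and HMGA2 was 41.1 FPKM and 44.7 FPKM. Of the genes on the 10 lists, SOX15 was past 2-fold higher in the OVOL2 line and none was past 2-fold lower. Over all genes 1.90% were higher and 1.17% lower, and nothing is read from the counts on the lists. SOX15 was 1.03 FPKM in the OVOL1 line and 2.17 FPKM in the OVOL2 line. Among the markers of cell state, VIM was 181 FPKM in the OVOL1 line and 76.9 FPKM in the OVOL2 line, and CDH1 was 16.0 FPKM and 39.2 FPKM. The markers did not all go this way. Of 7 epithelial markers, OVOL1 and OVOL2 included, 5 had a higher value in the OVOL2 line and 2 a lower one. The directions of OVOL1 (lower) and OVOL2 (higher) were set by the transduction and are not a result. The other lower marker was ESRP1. Against PC3-EMT14 it was listed at 15.2 FPKM in the OVOL1 line and 11.7 FPKM in the OVOL2 line, the latter in a row whose test failed. Of 5 mesenchymal markers with at least 1 FPKM, 1 was higher and 4 were lower, where 42.5% of all genes were higher.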

How the data were processed

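RNA-seq was performed on 10 samples of 4 PC3 lines. Per the labels and the study's methods, the authors aligned paired-end reads to hg19 with TopHat and checked them with FastQC. They ran Cuffdiff, of the Cufflinks suite, with fragment bias and multi-read correction. Upper-quartile normalization was set, and only fragments compatible with reference transcripts counted toward library size. The authors deposited FPKM values in 8 tables, a gene and an isoform table for each of 4 pairs of lines, with 1 value per line in each. The replicates were pooled, so no value per sample, count or depth was used, and no test was made. The tables name the lines by run names, which were matched to the labels through the comparison each table was deposited for. The authors' fold changes, test statistics, p-values and significance calls were not used. Only the status entry, which says whether a row was tested, was read.

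Rows were found by gene symbol. FPKM ratios and log2 differences were computed without pseudocount with Python 3.11.15, numpy 2.4.6 and pandas 2.3.3. A gene past 2-fold had a ratio of at least 2 and at least 1 FPKM in the higher line. A line listed at 0 counted as past it, with no fold given. The calculation was tested on simulated data. The 10 genes and the 10 lists of related genes were chosen with earlier results of these data known. A single gene of the surface marker list is not reported here and was left out of its counts. All 10 genes are described, and from each list at most 3 genes that were higher and 3 that were lower per comparison are named. Start positions are given counted from 1. Overlapping genes came from GENCODE for hg19, and promoter windows from RefSeq GRCh38.p14, whose coordinates were not mixed with hg19. Other folds, floors, pseudocounts, centring, isoform sums and status filters were tried.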

Additional observations from a re-analysis of the deposited data

How the results depend on the processing

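The counts of genes past 2-fold rest on 1 gene or none and move with the threshold. In the OVOL1 line the count of 1 became 2 at 1.5-fold, 0 at 4-fold, 3 with no floor on FPKM, and 0 with a floor of 5 FPKM or a pseudocount of 1 or 0.1 FPKM, since PROM2 lies at the threshold. In the OVOL2 line the count of 0 became 3 at 1.5-fold and 2 with no floor. In PC3-Epi the count of 1 became 2 at 1.5-fold and 4 with no floor, and it was 1 under the other alternatives. Between the OVOL lines the count of 0 became 1 with no floor. The genes added without a floor are among PROM1, ALDH1A1, SOX2 and LIN28B, none above 0.0638 FPKM in any line. Of 102 log2 differences of the 6 expressed genes recomputed under the alternatives, 101 stayed within 1.5-fold of the reported value and 0 reversed where a gene was past 2-fold. The other one was PROM2 in PC3-Epi, at 3.59 with a pseudocount of 1 FPKM. Centring the tables on their median, using only tested rows and summing isoform rows changed no count. No paired analysis was possible because each table holds 1 pooled value per line, and leaving out a replicate was not possible for the same reason. The depth is unknown, so how far values near 0 are from detection cannot be said.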
